A study of Mus musculus with 32 samples.

Results

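The transcripts described are 10 genes of the urea cycle and ammonia handling, taken by symbol from the 55401 gene identifiers counted in each library. They comprise the 5 urea cycle enzymes (Cps1, Otc, Ass1, Asl and Arg1), the enzyme that makes their activator (Nags), the mitochondrial carriers Slc25a13 and Slc25a15, and the glutamine enzymes Gls2 and Glul. Each symbol matched 1 identifier. The study profiled liver, calf muscle and hypothalamus of C57BL/6 mice at 200 d of age by 3′ RNA sequencing. The COX10 KO mice carried Flx alleles of Cox10, a gene needed to build cytochrome oxidase, with a Cre transgene at the Myl1 locus, a skeletal muscle gene. The CTL mice carried the label Ctrl. Liver and muscle each had 6 CTL and 6 COX10 KO libraries, 3 of each sex per genotype by the labels, and hypothalamus had 4 and 4 from males. The liver and the hypothalamus were therefore not the tissues in which the Cre was meant to act, and the question put to these genes was whether their transcripts differed in the liver of mice with a muscle defect.

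In the liver, ammonia is disposed of along the length of the lobule. Hepatocytes near the portal vein make urea: CPS1 joins ammonia to bicarbonate inside the mitochondrion, OTC passes the product to ornithine, and ASS1, ASL and ARG1 complete the cycle in the cytosol, while hepatocytes in a thin ring around the central vein use glutamine synthetase (Glul) to bind the ammonia that escapes. Muscle and brain have no complete urea cycle, and detoxify ammonia mainly as glutamine.

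The upstream sequence is shown for Otc and Nags, which were counted almost only in liver, and for Glul, which was abundant in all 3 tissues. Each run is the 250 bases before the RefSeq start site (GRCm38.p6, + strand, 5′ to 3′), with CCAAT and GC box letters in capitals.
Otc, chrX:10252055-10252304: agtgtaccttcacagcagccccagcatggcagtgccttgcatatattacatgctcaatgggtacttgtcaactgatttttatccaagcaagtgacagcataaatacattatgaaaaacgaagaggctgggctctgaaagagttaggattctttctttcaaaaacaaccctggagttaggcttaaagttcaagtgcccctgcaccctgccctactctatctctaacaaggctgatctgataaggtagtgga
Nags, chr11:102145263-102145512: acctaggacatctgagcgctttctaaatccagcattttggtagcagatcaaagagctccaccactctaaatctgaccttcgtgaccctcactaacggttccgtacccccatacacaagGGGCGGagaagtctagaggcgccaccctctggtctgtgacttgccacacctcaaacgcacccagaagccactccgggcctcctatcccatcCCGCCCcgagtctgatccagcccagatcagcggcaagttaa
Glul, chr1:153899679-153899928: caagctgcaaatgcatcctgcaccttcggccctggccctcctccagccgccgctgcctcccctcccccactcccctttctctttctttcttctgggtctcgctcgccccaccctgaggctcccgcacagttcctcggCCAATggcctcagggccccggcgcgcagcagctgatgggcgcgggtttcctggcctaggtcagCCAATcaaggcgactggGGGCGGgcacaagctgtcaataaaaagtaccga
The RefSeq promoter table held 6 of the 10 members with 7 start sites, Slc25a15 having 2. The upstream run of Otc had a GC content of 43.6% and 1 CpG, that of Nags 55.6% and 11 CpG, and that of Glul 64.8% and 15 CpG, beside medians of 52.4% and 6 CpG over 32851 promoters of the same length. Both strands were searched for 5 motifs. The TATA box letters TATAAA stood in 12.4% of all promoters, the CCAAT box letters CCAAT in 33.8% and the GC box letters GGGCGG in 32.7%. A motif of the C/EBP type, TTGCNNAA, stood in 9.56% and one of the HNF4 type, CAAAGNCCA, in 1.70%. Glul held CCAAT 113 and 50 bases before its start and a GC box 33 bases before it. Nags held 2 GC boxes, 132 and 41 bases before its start, the nearer one on the reverse strand, and Otc held none of the 5 letter patterns in this window. A match is a run of letters and not a measured binding site.

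Depth was 674311 to 16044634 counts per liver library, 434494 to 11404800 in muscle and 3526613 to 22321322 in hypothalamus. Levels are given as CPM (counts of a gene per 1000000 counts of the library) on library sizes scaled by the TMM method within each tissue. A read of this protocol comes from the 3′ end of a transcript, so CPM was not divided by length when members were set beside each other. Alb, which marks hepatocytes, ran from 20551 to 146387 CPM over the liver libraries, but also stood at 1648 CPM in CTL muscle 2, the shallowest library, beside 6.04 to 232 CPM in the other 11 muscle libraries. Xist and Y-linked transcripts did not match the labelled sex in 2 of the 12 liver libraries, CTL liver 1 and CTL liver 4, and in none of the other 20. The paper describes its mice as male unless it says otherwise, whereas the labels give both sexes in liver and muscle. Cox10 itself ranged from 48 to 147 CPM in CTL muscle and from 95.1 to 140 CPM in COX10 KO muscle. The labels do not give which part of the gene is removed, and a 3′ tag outside it checks nothing.

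The 10 members made up 0.302% to 0.683% of all counts in the CTL livers and 0.354% to 0.580% in the COX10 KO livers. On the CPM scale, Glul was the highest of the 10 in each of the 12 liver libraries. In CTL liver its mean was 1721 ± 293 CPM (SD, n = 6), followed by Cps1 at 851 ± 514, Ass1 at 523 ± 275, Arg1 at 478 ± 237, Otc at 460 ± 177, Slc25a15 at 364 ± 111, Gls2 at 361 ± 176, Asl at 185 ± 46.8, Slc25a13 at 178 ± 29.0 and Nags at 44.7 ± 14.7 CPM. The library ranges of neighbours in this order overlapped down to Slc25a13, and those of Nags lay below those of the other 9. The labels do not say whether libraries of 1 group came from separate extractions, so the p-values below measure the spread between these samples.

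None of the 10 members differed between COX10 KO and CTL liver after adjustment over all 9707 genes tested (edgeR quasi-likelihood test, Benjamini-Hochberg, threshold 0.05), against 9 genes called, or 0.0927% of those tested. All 10 members passed the filter on low counts, only Asl had an unadjusted p under 0.05, and none was called by DESeq2 either. Of the members, 5 had positive and 5 negative log2 fold changes, with a median of -0.02 beside -0.02 over all genes tested. An adjusted p over the threshold does not show equal levels: the interval around each fold change is given with it.

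Cps1, on chromosome 1 from 67123026 to 67231259 (GRCm38, + strand), encodes the entry enzyme of the cycle. It stood at 196, 906 and 1499 CPM (lowest, median and highest library) in CTL liver and at 149, 947 and 1324 CPM in COX10 KO liver. Both groups spanned almost the same range, and each held at least 1 library far below the rest: CTL 3 and CTL 4 (196 and 331 CPM) and COX10 KO 3 (149 CPM). COX10 KO and CTL differed by a log2 fold change of 0.07 ± 0.52 (SE; 95% confidence interval -1.04 to 1.19; adjusted p = 0.997, edgeR).

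Nags (chromosome 11, 102145513 to 102149477) makes N-acetylglutamate, the activator without which CPS1 does not work. It was the lowest member, at 27.2, 42.0 and 64.7 CPM in CTL liver and at 24.6, 36.5 and 58.9 CPM in COX10 KO liver. The groups overlapped over nearly their whole range, with a log2 fold change of -0.16 ± 0.28 (95% confidence interval -0.77 to 0.44; adjusted p = 0.997, edgeR). Gm11586 lies antisense to Nags, and the strand setting of the counting is not given in the sources used here, so their reads may not be separated.

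Otc (chromosome X, 10252305 to 10321024), the second mitochondrial enzyme, ran from 214 through a median of 480 to 639 CPM in CTL liver and from 298 through 347 to 796 CPM in COX10 KO liver. In COX10 KO liver 5 of the 6 libraries lay between 298 and 373 CPM and COX10 KO 4 alone at 796 CPM. The log2 fold change was -0.18 ± 0.32 (95% confidence interval -0.88 to 0.51; adjusted p = 0.997, edgeR).

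Ass1 (chromosome 2, 31470207 to 31520672) joins citrulline and aspartate, the step that brings in the second nitrogen of urea. Its levels were 76.1, 544 and 936 CPM in CTL liver and 296, 474 and 663 CPM in COX10 KO liver. The COX10 KO libraries all fell inside the CTL range, whose low end was CTL 3. Genotypes differed by a log2 fold change of -0.11 ± 0.43 (95% confidence interval -1.04 to 0.81; adjusted p = 0.997, edgeR).

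Asl (chromosome 5, 130011258 to 130029247, - strand) splits argininosuccinate into arginine and fumarate, and was the member with the smallest p in liver. It measured 190, 231, 108, 223, 205 and 153 CPM in CTL livers 1 to 6 and 267, 566, 244, 127, 375 and 459 CPM in COX10 KO livers 1 to 6. In 5 of 6 COX10 KO livers Asl lay above the highest CTL liver, and in COX10 KO 4 it lay inside the CTL range. Its mean was 185 ± 46.8 CPM (SD, n = 6) in CTL, and the COX10 KO livers averaged 340 ± 159 CPM (SD, n = 6). The edgeR fit gave a log2 fold change of 0.88 ± 0.35 (95% confidence interval 0.14 to 1.62; adjusted p = 0.878, edgeR). Permuting genotype over the 12 libraries (exact permutation of the mean CPM, two-sided, 1 of 30 such tests over members and tissues and not adjusted for them) gave p = 0.0476, and p = 0.0606 on plain library totals, with 0.00216 as the smallest p this design allows. The difference did not pass the adjustment over all genes under any of 20 alternatives, in which the log2 fold change ran from 0.64 to 1.06 and the adjusted p from 0.401 to 1.00.

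Arg1 (chromosome 10, 24915221 to 24927484, - strand) releases urea from arginine. Its lowest, median and highest libraries were 197, 529 and 810 CPM in CTL, against 223, 556 and 955 CPM in COX10 KO liver. The lowest were CTL 4, CTL 3 and COX10 KO 3, the same 3 libraries in which Cps1 was lowest. For Arg1 the log2 fold change was 0.26 ± 0.41 (95% confidence interval -0.61 to 1.13; adjusted p = 0.997, edgeR).

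**Figure D1:**
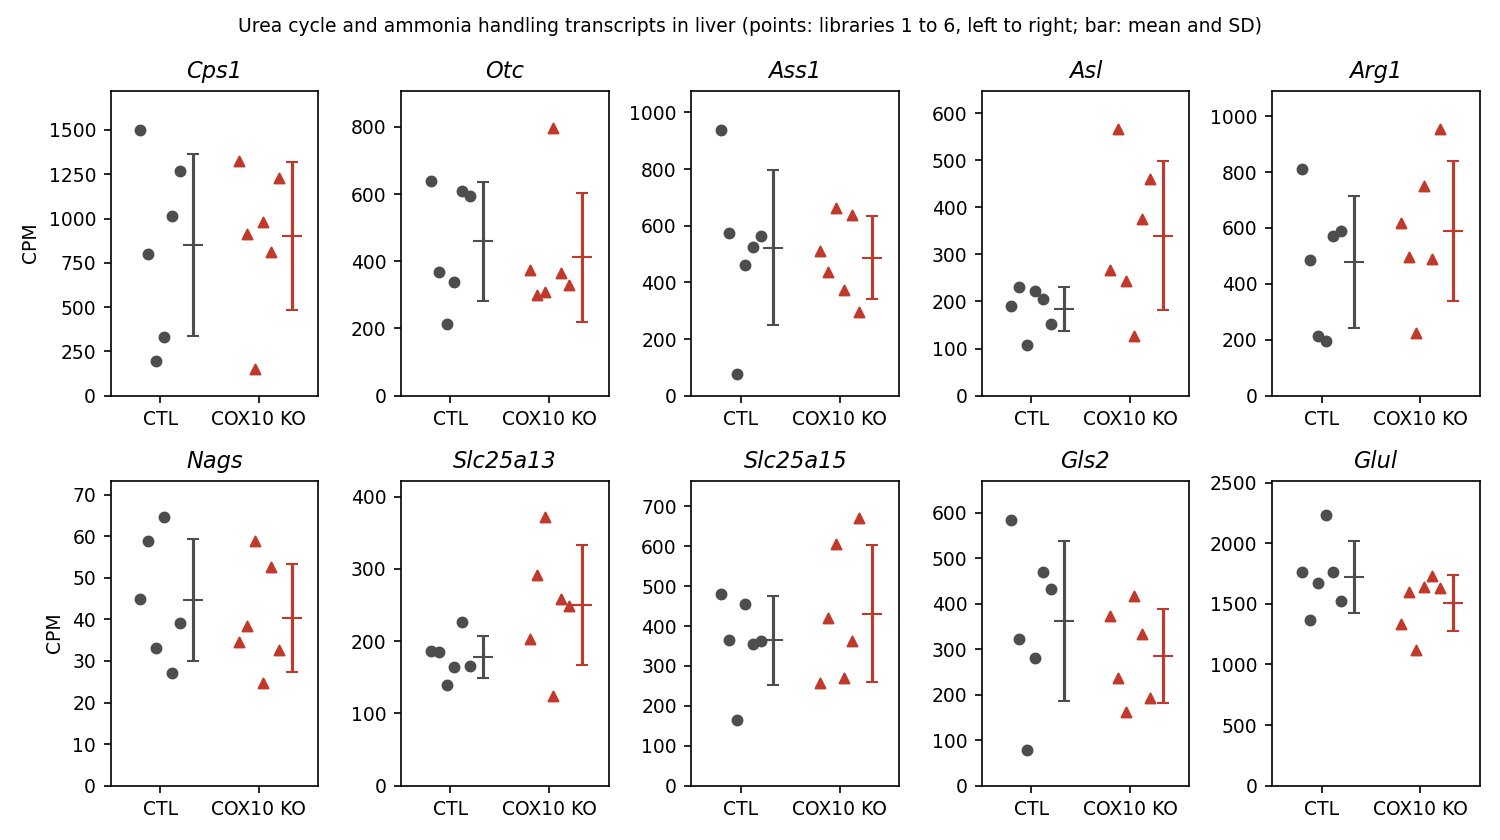
Level in CPM (linear axis from 0, its own scale for each gene) of the 10 members in every liver library, with CTL as grey circles and COX10 KO as red triangles, libraries 1 to 6 from left to right, and the mean with SD as a bar beside them. Asl lies above the highest CTL value of 231 CPM in 5 of 6 COX10 KO libraries, while no member separates the 2 genotypes.

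The mitochondrial carriers move substrates of the cycle across the inner membrane. Slc25a13 (chromosome 6, 6041218 to 6217173, - strand) encodes citrin, which exports aspartate for ASS1, and Slc25a15 (chromosome 8, 22375551 to 22398597, - strand) exchanges ornithine for citrulline. Slc25a13 measured 140, 175 and 226 CPM in CTL liver and 124, 254 and 372 CPM in COX10 KO liver. The highest 4 COX10 KO libraries were above every CTL library and the lowest, COX10 KO 4, was below them all. The log2 fold change was 0.47 ± 0.27 (95% confidence interval -0.11 to 1.05; adjusted p = 0.997, edgeR). Slc25a15 measured 165, 364 and 481 CPM in CTL, against 258, 391 and 670 CPM in COX10 KO liver. Its groups overlapped, with a log2 fold change of 0.25 ± 0.33 (95% confidence interval -0.45 to 0.95; adjusted p = 0.997, edgeR).

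Gls2 (chromosome 10, 128194457 to 128210004) encodes the liver type of glutaminase, which frees ammonia from glutamine beside CPS1 in periportal cells. It stood at 77.8, 377 and 584 CPM in CTL liver and at 162, 284 and 416 CPM in COX10 KO liver. The COX10 KO libraries lay inside the CTL range, and the log2 fold change was -0.34 ± 0.40 (95% confidence interval -1.20 to 0.52; adjusted p = 0.997, edgeR). Spryd4 lies antisense to Gls2, with the same limit on strand as for Nags.

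Glul (chromosome 1, 153899944 to 153909723), the perivenous enzyme that binds ammonia to glutamate, varied less than the urea cycle enzymes. It ran from 1370 through 1717 to 2233 CPM in CTL liver and from 1120 through 1612 to 1727 CPM in COX10 KO liver. The coefficient of variation between libraries was 17.0% in CTL and 15.4% in COX10 KO liver for Glul, beside 60.4% and 46.2% for Cps1 and 52.6% and 30.1% for Ass1. The log2 fold change of Glul was -0.20 ± 0.23 (95% confidence interval -0.69 to 0.30; adjusted p = 0.997, edgeR), with 2 of 6 COX10 KO libraries under the lowest CTL library. Teddm2 lies antisense to Glul and Mir8114 within it, and their reads may not be separated from it. The interval of Glul is the narrowest of the 10 and that of Cps1 the widest.

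**Figure D2:**
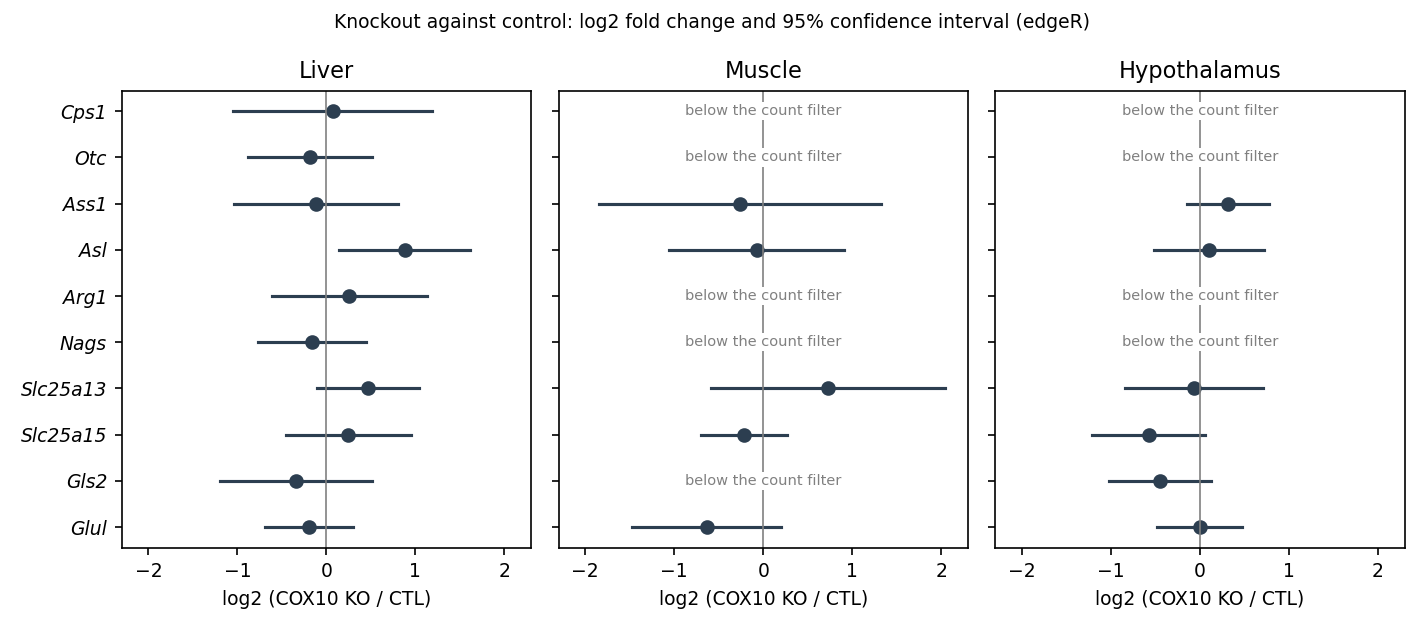
Log2 fold change of COX10 KO against CTL (points) with its 95% confidence interval (lines) from edgeR for each member in liver, muscle and hypothalamus; members that did not pass the count filter have no value. The liver interval of Asl, 0.14 to 1.62, is the only one that leaves out 0, and no member passed the adjustment over all genes in any of the 3 tissues.

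The periportal members were next set against Glul library by library, since a ratio within a library does not depend on the scaling of its depth. In CTL liver Cps1 reached 0.117 to 0.849 of the Glul level, with a median of 0.579, and in COX10 KO liver 0.133 to 0.995, with a median of 0.585. The mean log2 ratio of Cps1 to Glul was -1.32 ± 1.27 in CTL and -0.99 ± 1.01 in COX10 KO liver (SD, n = 6 each), a difference smaller than either SD. The same held for Otc (-1.99 ± 0.69 and -1.95 ± 0.51), Ass1 (-2.01 ± 1.28 and -1.67 ± 0.61), Arg1 (-2.02 ± 0.98 and -1.47 ± 0.57) and Gls2 (-2.47 ± 1.07 and -2.47 ± 0.49). Asl was the exception, at -3.25 ± 0.45 in CTL and -2.29 ± 0.75 in COX10 KO liver, where 5 of 6 COX10 KO libraries again exceeded all CTL libraries. These ratios were described and not tested. In bulk tissue, fewer cells of a type and less RNA per cell cannot be told apart.

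**Figure D3:**
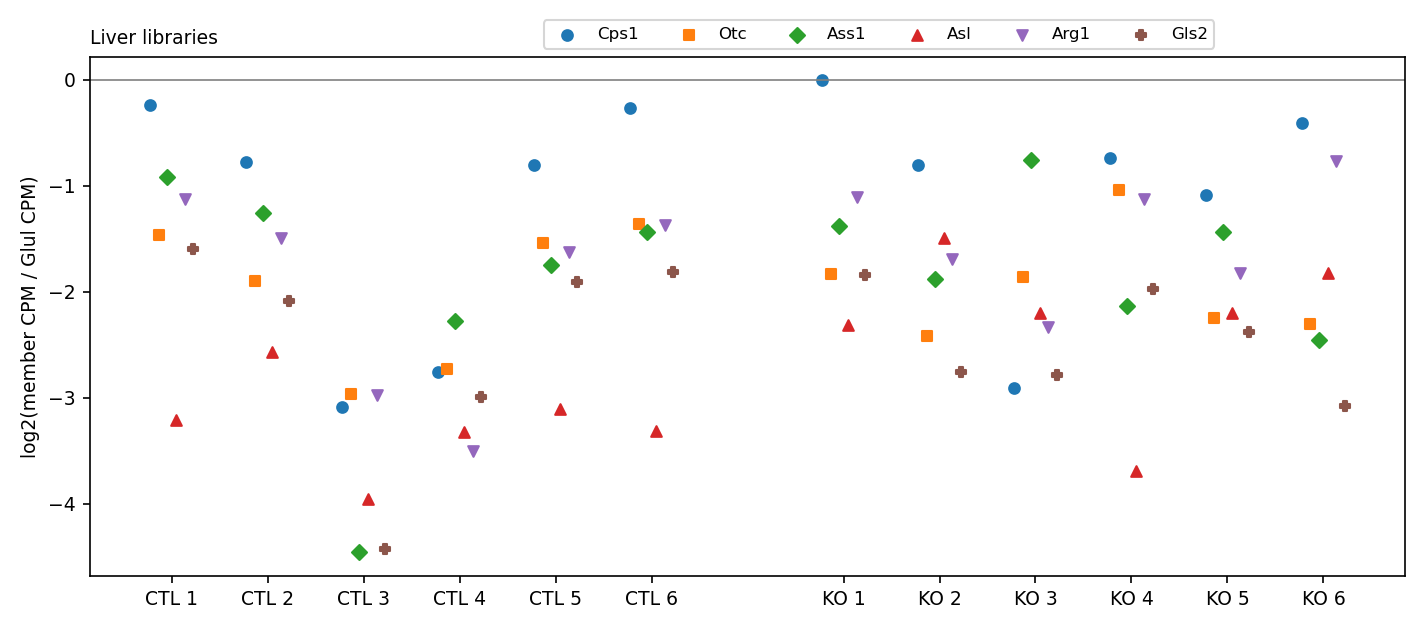
Log2 ratio of the CPM of each of 6 periportal members to that of Glul in each liver library, CTL 1 to 6 on the left and COX10 KO 1 to 6 (KO) on the right; the line at 0 marks a level equal to Glul. Every point lies below 0, the Cps1 ratio is lowest in CTL 3 (-3.09), COX10 KO 3 (-2.91) and CTL 4, and the CTL ratios of Otc, Ass1, Asl and Gls2 are also lowest in CTL 3.

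Among the CTL libraries CTL liver 3 held the lowest level of 7 members (Cps1, Otc, Ass1, Asl, Slc25a13, Slc25a15 and Gls2), and its CPM of Cps1, Otc, Ass1, Asl, Arg1 and Nags together came to 839 beside 1615 to 4119 CPM in the other CTL livers and 1645 to 3299 CPM in the COX10 KO livers. Glul made up 57.7% of the 10 members' CPM in CTL 3 and 47.0% in CTL 4, beside 24.7% to 31.9% in the other 10 liver libraries. Markers of some other cells also stood high in CTL 3: erythroid markers summed to 15419 CPM beside 1383 to 3878 CPM in the other 11 livers, neutrophil markers to 96.9 beside 2.63 to 20.3 CPM, and macrophage markers to 1748 beside 229 to 1465 CPM. Hepatocyte markers in CTL 3 summed to 176233 CPM, inside the 114365 to 234782 CPM of the other 11 livers. Periportal marker sums lay inside that range of libraries too (113552 beside 23834 to 155304 CPM), as did those of endothelium, stellate cells and cholangiocytes. The periportal list includes Alb, which alone stood at 110325 CPM in CTL 3, so its sum mostly reads Alb. Cyp2f2 and Hal of the same list were lowest in CTL 3, at 790 and 169 CPM. The next lowest livers stood at 807 CPM for Cyp2f2 and 231 CPM for Hal. The rest of that list was not read by library. The next highest macrophage sum was in CTL 2, where the summed CPM of Cps1, Otc, Ass1, Asl, Arg1 and Nags was 2516. Glul in CTL 2, at 1370 CPM, was the lowest of the CTL livers. Muscle fibre markers reached 707 CPM in COX10 KO liver 6. By genotype the macrophage sums ran from 332 to 1748 CPM (median 784) in CTL and from 229 to 740 CPM (median 319) in COX10 KO livers. Of 12 macrophage markers none was called by edgeR, 11 had an unadjusted p under 0.05 beside 483 of all 9707 genes, and 5 were called lower by DESeq2 beside 62 of 20292 genes in either direction. The part of these cells in the member values was not tested. Without CTL liver 3 the log2 fold change of Cps1 was -0.12, and without COX10 KO liver 3, the shallowest liver library at 674311 counts, it was 0.33. Without both CTL libraries of mismatched sex, no member was called either, and the log2 fold change was 0.20 for Ass1 and 0.04 for Nags.

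Cps1 and Glul, the only pair tested for a relation across the 12 liver libraries, showed none. Pearson's r of log2(CPM + 0.5) was 0.15 (permutation p = 0.621) and Spearman's rho 0.04 (permutation p = 0.906). Within CTL liver r was -0.35 (exact permutation p = 0.493, n = 6; rho -0.09, p = 0.919) and within COX10 KO liver 0.73 (exact permutation p = 0.163, n = 6; rho 0.03, p = 1.00). Without the 2 libraries farthest from the median of Cps1, CTL 3 and COX10 KO 3, r was -0.64 (permutation p = 0.0682, n = 10; rho -0.24, p = 0.514). The sign of r thus rested on those libraries.

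Among members, Cps1 varied most like Arg1 (r = 0.92 across the 12 liver libraries), then Gls2 (0.76) and Otc (0.62), and Otc varied most like Gls2 (0.85). Asl was closest to Slc25a13 (0.75) and not to Cps1 (0.25). Outside the members, the genes most like Cps1 among those that passed the filter were Cth (0.96), Dpp4 (0.94), Slc17a2 (0.94), H3f3a (0.93) and Slco1b2 (0.92), and those most like Glul were F2 (0.91), Armc5 (0.90), Utp23 (0.90), Rab5b (0.88) and Hax1 (0.87). These correlations describe 12 libraries that differ in depth and in marker levels of other cells, and carry no p.

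The members were next compared between tissues in the CTL mice. The 5 members that passed the filter in muscle too (Ass1, Asl, Slc25a13, Slc25a15 and Glul) were called higher in CTL liver (edgeR, 10822 genes tested), where 30.8% of genes were called higher. The 6 that passed in hypothalamus too, these and Gls2, were called higher in liver than there, where 30.6% of 13759 genes were. The other members passed only through liver, where they are high, and so had to differ: their values are a description. Levels per library are each on their own tissue's scale, whereas the fold changes come from 1 fit over both tissues.

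Cps1, Otc, Arg1 and Nags were near the detection limit outside the liver. Nags had 0 counts in all 6 CTL muscle libraries, at least 308-fold lower than in CTL liver by the limit of 3 counts over the group, and 3 counts in CTL hypothalamus, a pooled ratio of 507 (95% exact interval 173 to 2462). Otc had 13 counts in CTL muscle, a log2 fold change of 9.45 ± 0.81, and 0 counts in CTL hypothalamus, at least 6384-fold lower than in liver. Cps1 had 26 counts in CTL muscle and 2 in CTL hypothalamus (pooled ratio 20302, interval 5620 to 167648), and Arg1 had 31 and 4 counts (pooled ratio for hypothalamus 5522, interval 2156 to 20269). Intervals and limits of this kind cover counting error only. Of the CTL muscle counts, 12 of 26 for Cps1, 19 of 31 for Arg1 and 4 of 13 for Otc came from CTL muscle 2, the library with Alb at 1648 CPM. Without it the log2 fold change of liver over muscle rose from 8.86 to 10.16 for Cps1, from 7.53 to 9.63 for Arg1 and from 9.45 to 10.20 for Otc.

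Ass1 and Asl, which also serve arginine synthesis outside the urea cycle, were measurable in hypothalamus. Ass1 stood at 12.7, 16.0, 15.9 and 14.1 CPM in CTL hypothalamus 1 to 4, and Asl at 4.42, 7.04, 7.97 and 6.33 CPM. In CTL muscle Ass1 ran from 0 to 2.73 CPM and Asl from 0.722 to 7.38 CPM. CTL liver exceeded hypothalamus by a log2 fold change of 6.02 ± 0.60 for Ass1 and 5.72 ± 0.34 for Asl, and muscle by 8.94 ± 0.79 and 6.22 ± 0.43.

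The carriers and Gls2 were lower outside the liver but present. Slc25a15 ran from 14.2 to 22.1 CPM in CTL muscle and from 10.3 to 16.2 CPM in CTL hypothalamus, with the smallest difference between liver and muscle of the members after Glul (log2 4.43 ± 0.30). Slc25a13 ran from 7.28 to 19.4 CPM in CTL hypothalamus and from 0.452 to 7.38 CPM in CTL muscle. Gls2 ran from 15.6 to 31.6 CPM in hypothalamus but had 8 counts in all 6 CTL muscle libraries together.

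Glul was the only member above 100 CPM in every CTL library of all 3 tissues. It stood at 385, 565, 773, 332, 228 and 240 CPM in CTL muscle 1 to 6 and at 1141, 1255, 1462 and 1851 CPM in CTL hypothalamus 1 to 4, where the enzyme is known from astrocytes. Glul alone made up 94.6% to 96.2% of the 10 members' CPM in CTL hypothalamus and 84.1% to 97.1% in CTL muscle. CTL liver exceeded muscle by a log2 fold change of 2.23 ± 0.34 (adjusted p = 5.12e-05, edgeR) and hypothalamus by 1.13 ± 0.27 (adjusted p = 0.00167, edgeR). The latter depended on scaling: the TMM fit gave 2.19-fold and the plain ratio of pooled counts to pooled totals 1.35-fold, and RLE factors moved the median over all genes from -0.18 to -0.31 in this comparison. For Slc25a13 the same fit gave 26.7-fold and the pooled ratio 11.9-fold.

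**Figure D4:**
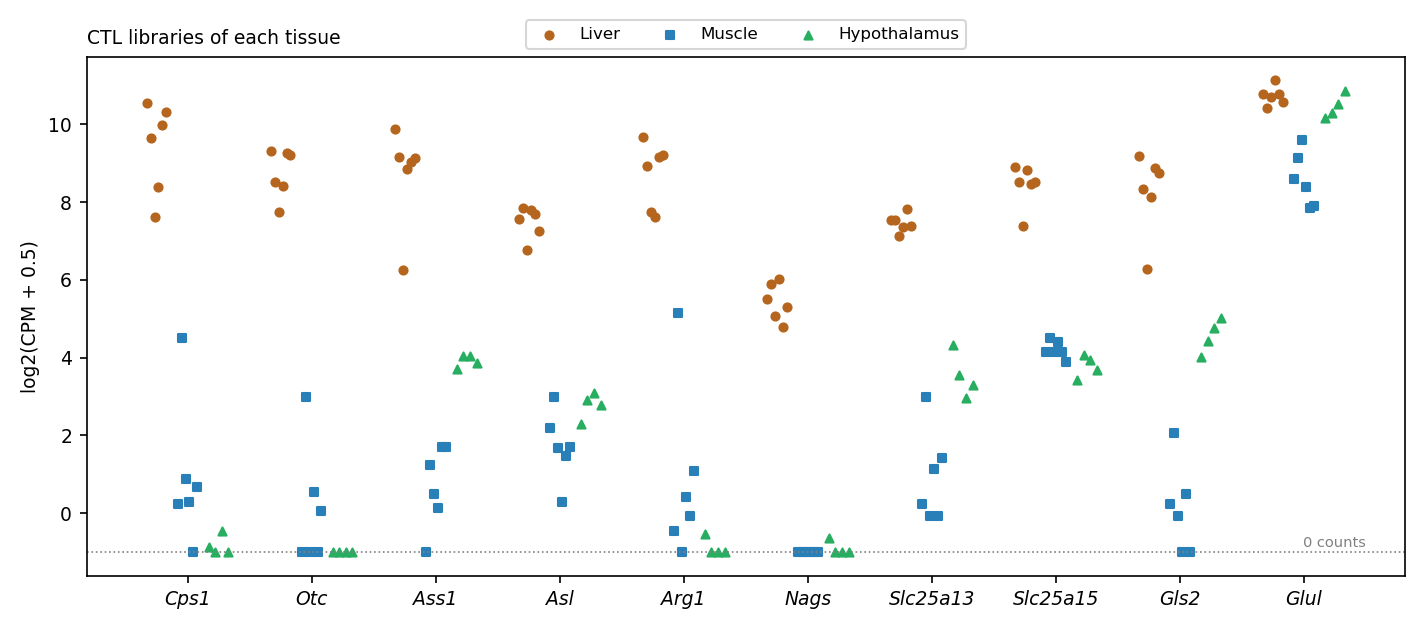
Log2(CPM + 0.5) of the 10 members in each CTL library of liver (circles), muscle (squares) and hypothalamus (triangles), each tissue on its own scale; the dotted line marks 0 counts. Liver lies highest for every member except that Glul in hypothalamus, 1141 to 1851 CPM, overlaps liver, and CTL muscle 2 stands above the other muscle libraries for Cps1 (22.1 CPM), Otc and Arg1.

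In muscle, the tissue of the knockout, 5 of the 10 members passed the filter (Ass1, Asl, Slc25a13, Slc25a15 and Glul) and none was called, where 14.3% of 11636 genes were. The unadjusted p was over 0.05 for each of the 5, and no member was called by DESeq2. Glul measured 143, 206, 245, 116, 267 and 575 CPM in COX10 KO muscle 1 to 6, beside the 228 to 773 CPM of CTL. Of the COX10 KO libraries 3 lay below every CTL library, and COX10 KO 6, the highest, stood at 575 CPM. The log2 fold change of Glul was -0.64 ± 0.40 (95% confidence interval -1.48 to 0.20; adjusted p = 0.301, edgeR), and without COX10 KO 6 it was -1.01 with an adjusted p of 0.0334. The exact permutation test of its mean CPM gave p = 0.177 (n = 6 each).

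The other muscle members were at low counts. Slc25a15 ran from 8.39 to 21.4 CPM in COX10 KO muscle, with a log2 fold change of -0.22 ± 0.23 (95% confidence interval -0.70 to 0.27). The intervals of Slc25a13 (-0.58 to 2.04), Ass1 (-1.85 to 1.32) and Asl (-1.06 to 0.91) were wide, at medians under 3 CPM in both genotypes. Without CTL muscle 2 the log2 fold change of Slc25a13 moved from 0.73 to 1.25 (adjusted p = 0.152, edgeR) and that of Asl from -0.07 to 0.14. Cps1, Otc, Arg1 and Gls2 did not pass the filter, and Nags was at 0 counts in all 12 muscle libraries. When no filter was applied, Arg1 was called lower in COX10 KO muscle (log2 fold change -2.33, adjusted p = 0.0278, edgeR), with 19 of the 31 CTL counts in CTL muscle 2.

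The knockout effect in muscle was also compared with that in liver in 1 fit over both tissues. Of the 5 members that passed the muscle filter none was called or had an unadjusted p under 0.05, against 2.18% of 11373 genes called. The log2 difference of muscle minus liver was -0.51 ± 0.50 for Glul (95% confidence interval -1.55 to 0.53; adjusted p = 0.640, edgeR) and -0.93 ± 0.56 for Asl (-2.08 to 0.21; adjusted p = 0.394). Cps1, Otc, Arg1, Gls2 and Nags entered this fit only through their liver counts, so their difference is not read.

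In hypothalamus 6 members passed the filter and none was called, as was no gene of 13504 (0.0%). None of the 6 had an unadjusted p under 0.05, against 211 of all genes, and DESeq2 called no gene either. The labels do not say that libraries of the same number belong together, and pairs of this kind were read from the data. With the replicate number as a block, 2 genes were called, neither of them a member. Gls2 and Slc25a15 then had an unadjusted p under 0.05, as did 1341 of 14212 genes. Glul stood at 1110, 1458, 1497 and 1626 CPM in COX10 KO hypothalamus 1 to 4, almost level with CTL, with a log2 fold change of 0.00 ± 0.22 (95% confidence interval -0.48 to 0.47). Slc25a15 measured 10.3, 16.2, 14.8 and 12.4 CPM in CTL, against 6.51, 6.38, 8.14 and 14.5 CPM in COX10 KO hypothalamus, 3 of 4 below every CTL library. Its log2 fold change was -0.58 ± 0.29 (95% confidence interval -1.21 to 0.05; adjusted p = 1.00, edgeR), and the exact permutation test of the mean gave p = 0.0857 (n = 4 each), where 70 assignments allow no p below 0.0286. Gls2 was lower in COX10 KO in 4 of 4 pairs of the same number, at 15.6, 20.9, 26.9 and 31.6 CPM in CTL 1 to 4 and 11.7, 16.1, 20.2 and 20.7 CPM in COX10 KO 1 to 4. Its log2 fold change was -0.45 ± 0.26 without the block and -0.47 ± 0.14 with it (adjusted p = 0.441, edgeR), and that of Slc25a15, lower in 3 of 4 pairs, was -0.64 ± 0.23 with it (adjusted p = 0.505). The others differed, without the block, by log2 fold changes of 0.31 ± 0.21 (Ass1), 0.10 ± 0.28 (Asl) and -0.07 ± 0.35 (Slc25a13). The groups of all 6 overlapped. Hypothalamic neuron markers, summed, ran from 701 to 1612 CPM in CTL libraries and from 700.2 to 1888 CPM in COX10 KO libraries, with 4 of 9 at an unadjusted p under 0.05 and none called, and their part in these values was not tested.

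The rest of the pathway was described from a list of 31 other genes of nitrogen and arginine handling. In liver 21 were tested and none was called by edgeR or DESeq2, with 1 at an unadjusted p under 0.05 and a median log2 fold change of -0.05 beside -0.02 over all genes. That gene was Rhbg, an ammonia channel of perivenous hepatocytes, at 31.5 ± 18.6 CPM in CTL livers against 17.2 ± 11.2 CPM in those of COX10 KO mice (adjusted p = 0.947, edgeR). Glud1, which releases ammonia from glutamate, averaged 1237 ± 408 CPM in CTL and 891 ± 421 CPM in the COX10 KO livers. Oat, the perivenous ornithine aminotransferase, was listed at 0 in every library of all 3 tissues. A 0 in every library does not show that the transcript was absent, and the paper detected OAT protein in muscle on western blots.

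In muscle 20 of the 31 were tested, 7 were called higher and 1 lower in COX10 KO, with a median log2 fold change of 0.47 beside -0.03 over all genes, of which 14.3% were called in either direction. Asns, which makes asparagine from aspartate and glutamine, stood at 4.04 ± 6.23 CPM in CTL muscle and at 49.4 ± 8.22 CPM after the knockout, a log2 fold change of 4.52 ± 0.53 (adjusted p = 7.81e-05, edgeR). Aldh18a1, the entry enzyme from glutamate to proline and ornithine, rose by 3.21 ± 0.38 on the log2 scale, and Slc7a1, a transporter of arginine, by 2.33 ± 0.30. Both aspartate aminotransferases (Got1 1.35 ± 0.23, Got2 0.90 ± 0.20), Glud1 (0.72 ± 0.23) and the glutamine transporter Slc38a2 (0.75 ± 0.24) also rose. Slc38a4, a neutral amino acid transporter, fell by 1.92 on the log2 scale. Without CTL muscle 2 the count was again 7 higher and 1 lower, with Sirt3 in place of Slc38a2.

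In the purine nucleotide cycle, through which muscle releases ammonia from AMP, Ampd1 stood at 1048 ± 322 CPM in CTL muscle and at 306 ± 77.8 CPM after the knockout, a log2 fold change of -1.80 ± 0.24 (adjusted p = 2.20e-04, edgeR), and the other 5 of its 6 genes were not called. Of 10 muscle fibre markers in the same libraries 4 were called lower, and of 7 macrophage markers tested 3 were called higher, and their part in these changes was not tested. Neither Ampd1 nor any of these rising genes is one of the 10 members, and Glul in the same libraries is described above. Across hepatic amino acid breakdown no gene of 17 tested was called in liver by edgeR or DESeq2 and none had an unadjusted p under 0.05, and in muscle 1 of 4, Prodh, rose (log2 1.15 ± 0.25). Of 22 genes of the nitrogen list, 5 of the purine nucleotide cycle and 5 of amino acid breakdown tested in hypothalamus, none was called, with 1 at an unadjusted p under 0.05, Cbs of the last list.

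**Figure D5:**
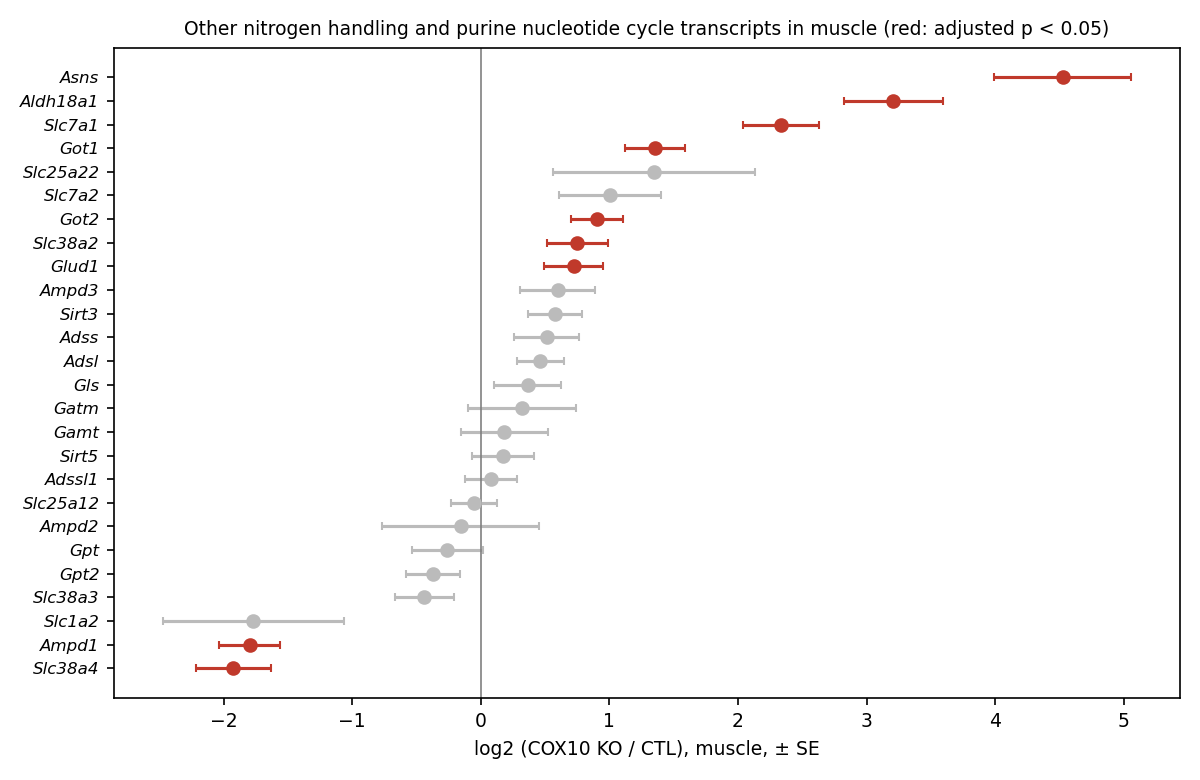
Log2 fold change of COX10 KO against CTL in muscle with its SE for the 20 tested genes of the nitrogen list and the 6 of the purine nucleotide cycle, in red where the edgeR adjusted p was under 0.05. Asns (4.52) and Aldh18a1 (3.21) lie highest and Slc38a4 and Ampd1 (-1.80) lowest.

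Of 10 regulators known to act on urea cycle genes, none was called in liver by edgeR and DESeq2 called 1, beside 62 of 20292 genes. That gene was Ppargc1a, a transcriptional coactivator induced by fasting and glucagon, at 8.92 ± 3.53 CPM (4.30 to 13.1) in CTL livers against 22.2 ± 5.59 CPM (14.7 to 29.9) in COX10 KO livers. Its groups did not overlap, though how many of all genes tested did the same was not counted. The log2 fold change of Ppargc1a was 1.37 ± 0.32 and the adjusted p 0.189 (edgeR). In muscle Nr3c1, the glucocorticoid receptor, was called lower (log2 fold change -1.01 ± 0.20, adjusted p = 0.00432, edgeR). It was the only 1 of 8 tested there, where 14.3% of all genes were called. In hypothalamus none of 8 was called or had an unadjusted p under 0.05.

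The zonation markers were read beside the members. Of 12 periportal markers none was called in liver or had an unadjusted p under 0.05, with a median log2 fold change of 0.08. Of 17 perivenous markers 16 were tested and none was called, with a median of -0.32 and 2 at an unadjusted p under 0.05: Cyp2c37, higher, and Rhbg, lower in COX10 KO liver. DESeq2 called no marker of either list in liver. Glul, with a log2 fold change of -0.20, thus lay between these medians.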

How the data were processed

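The authors trimmed the 3′ sequencing reads with BBDuk, aligned them with STAR 2.5.0a to GRCm38 and used HTSeq 0.6.1 to obtain gene-level totals. Raw counts were deposited by the authors, in 1 table for each library. Identifiers were named from GENCODE M21 by stable identifier. Each tissue was fitted on its own with edgeR 4.0.16 in R 4.3.3 (quasi-likelihood F test, TMM factors, filterByExpr, genotype, and labelled sex in liver and muscle), with p-values adjusted by Benjamini-Hochberg over all genes tested at a threshold of 0.05. Tissue contrasts and the difference of knockout effects came from joint fits. Those of liver and muscle held labelled sex. The fit of liver against hypothalamus had no sex term, since the hypothalamus libraries were all from males and the livers of both sexes by the labels. Total counts per library, 434494 at the lowest, set the precision of low values. Exact permutation tests, correlations on log2(CPM + 0.5) and exact intervals used scipy 1.17.1. Alternatives were DESeq2 1.42.0, RLE factors, other filters, a replicate block, sex read from transcripts and leaving out libraries. The plain-total test of levels and the gene list counts under other settings were chosen after seeing the data. The fits were tested on simulated data. The members and gene lists were chosen with earlier results of these data known. Genes named outside the members were those called, those with the smallest p in a list, or, for likeness, the 5 with the highest r. In hypothalamus, libraries with the same replicate number deviated together (r = 0.81, 0.21, 0.41 and 0.32, from the data and not the labels), and the blocked count stands beside that result.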

Additional observations from a re-analysis of the deposited data

Results flagged for a closer look

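Within groups of 4 to 6 libraries, 15 of 56 tested sets of member levels had a highest or lowest library set apart by Dixon's criterion, where chance marks about 1 in 20 groups. That rate is for independent sets of normally distributed values, and several of these sets were near 0 counts or shared CTL muscle 2. In liver this held for Otc in COX10 KO 4, at 796 CPM. In muscle CTL 2 stood apart for 5 members: Cps1 at 22.1 CPM (12 counts), Otc at 7.38 CPM (4 counts), Arg1 at 35.1 CPM (19 counts), Slc25a13 at 7.38 CPM (4 counts) and Gls2 at 3.69 CPM (2 counts). In COX10 KO muscle the libraries set apart were COX10 KO 5 for Ass1 (2.56 CPM, 5 counts), COX10 KO 4 for Gls2 (2.57 CPM, 15 counts) and COX10 KO 6 for Glul (575 CPM, 7257 counts). In hypothalamus Asl was lowest in COX10 KO 1, at 4.56 CPM. The remaining values, in hypothalamus, also rest on few counts, 1 to 4 in a single library: Otc in COX10 KO 4 (0.223 CPM), Arg1 in CTL 1 (0.188 CPM) and COX10 KO 2 (0.555 CPM), and Nags in CTL 1 (0.141 CPM) and COX10 KO 4 (0.223 CPM).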

How the results depend on the processing

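No member was called in liver or hypothalamus under any alternative run. The same held for muscle minus liver among the 5 members that passed the muscle filter. In liver 9 genes were called. DESeq2 called 62, no filter 175, at least 10 counts in every library 0 (250 at an unadjusted p under 0.05), sex read from transcripts 28 and leaving out both libraries of mismatched sex 16, while leaving out 1 library gave 4 to 13. Of 200 alternative log2 fold changes of members in liver, 190 kept their direction and side of the threshold and 10 changed sign. Ass1 became 0.20 and Nags 0.044 without both mismatched libraries, and leaving out 1 library gave -0.17 to 0.41 for Cps1, -0.43 to 0.045 for Otc, -0.36 to 0.17 for Ass1 and -0.30 to 0.052 for Nags. In muscle 1668 genes were called, 1111 with at least 10 counts in every library and 913 to 2052 without 1 library. The count of members called was 1 without a filter (Arg1) and 0 to 1 without 1 library (Glul without COX10 KO 6), and Asl ran from -0.38 to 0.14. In hypothalamus leaving out 1 library gave -0.090 to 0.25 for Asl, -0.33 to 0.30 for Slc25a13 and -0.12 to 0.15 for Glul. For muscle minus liver 248 genes were called, 697 by DESeq2, 419 without a filter and 140 to 320 without 1 library, where Otc ran from -1.24 to 0.12, Ass1 from -0.70 to 0.073 and Gls2 from -0.56 to 1.13. Of the exact tests of levels, 1 of 30 had p under 0.05 and 0 on plain library totals, an alternative chosen after seeing the data. Causes of these shifts were not tested, except that stricter filters tested fewer genes.

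With the replicate number as a block, 987 genes were called in muscle, 84 for muscle minus liver and 2 in hypothalamus, and Ass1 in liver became 0.018. Same-numbered libraries were all positively correlated (r of 0.21 or more) in hypothalamus, though number 3 correlated more with another number, and not all in liver or muscle. The block changed no call of a member. Depth limits Cps1, Otc, Arg1 and Nags outside liver, where 0 to 31 counts per genotype and tissue were found.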
